A study of Mus musculus with 2 samples.

Results

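A set of 36 nuclear genes for subunits of respiratory complex I was followed in heart tissue of B6NCrl mouse embryos at day 12.5 of development. They were chosen by name, as protein-coding genes called Ndufa, Ndufab1, Ndufb, Ndufc, Ndufs or Ndufv with a subunit number, leaving out Ndufa4, and all 36 had a row among the 43346 Ensembl genes of the gene tables. Of the 36, 7 code for core subunits and 29 for accessory subunits. Ndufb1-ps, another gene with an Nduf name, lies outside this rule and matched no row, so the set may not hold every nuclear subunit. The study holds 2 libraries, labelled biological replicates 1 and 2 of 1 group, each from healthy embryos of both sexes and each started from 10 ng of RNA over 200 nt long. There is no treatment, mutant or other stage to compare with. The replicates carry the same donor label and nothing says from how many litters the hearts came, so the spread between them may be partly technical. No test between conditions was possible, and 2 libraries cannot give an exact p below 0.5, so values are given as levels, differences and spreads without a p.

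Complex I, the NADH:ubiquinone oxidoreductase, is the entry point of electrons from NADH into the mitochondrial respiratory chain, and couples their transfer to ubiquinone to proton pumping across the inner membrane. It is L-shaped, with a matrix arm that carries the flavin and the iron-sulphur clusters and a membrane arm that pumps protons. The nuclear core subunits belong to the matrix arm, the remaining core subunits are coded by mitochondrial DNA and form the membrane arm, and the accessory subunits surround both. Each subunit is held once per complex, except the acyl carrier protein Ndufab1, which sits in both arms, so that transcript levels of the subunits can be set against a common stoichiometry. That stoichiometry concerns proteins, whereas the values here are RNA levels, and protein was not measured. Heart muscle is rich in this complex, and defects of the complex are a known cause of cardiomyopathy in humans.

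Replicate 1 held 34751234 expected reads and replicate 2 held 31847875. The members received 217238 reads in replicate 1 and 194990 in replicate 2, between 849 and 14369 per gene and library. As a check of the tissue label, all 7 heart muscle markers examined were detected, with summed levels of 23434 and 23164 TPM (a share of all transcripts, scaled by transcript length) in replicates 1 and 2. The 5 markers of red blood cells summed to 42869 and 38520 TPM, the 5 endothelial markers to 241 and 253 TPM, and the 5 mesenchymal markers to 1266 and 1214 TPM. Of the leukocyte markers 3 of 4 were detected, with sums of 97.1 and 103 TPM, and of the brain markers 0 of 4, with sums of 0.57 and 0.31 TPM. In whole tissue, fewer cells of a type and less RNA per cell cannot be told apart, and the part of each cell type in the subunit levels was not tested.

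For 2 members, a near-identical copy elsewhere in the genome bears directly on the reported level, and the sequences show why the copies matter for read assignment. The coding sequence of Ndufb4, an accessory subunit of the membrane arm, runs over 390 bases with its stop codon. The processed pseudogene Ndufb4c (ENSMUSG00000083380.1; GRCm38 chromosome 15, 73809507 to 73809896) is 390 bases long and matched it at 390 of 390 positions. The first 120 bases are printed for both, with the start codon in capitals; Ndufb4 lies on the minus strand of chromosome 16, where this stretch covers chr16:37654240-37654359, and that of Ndufb4c is the minus strand of chr15:73809777-73809896.
Ndufb4: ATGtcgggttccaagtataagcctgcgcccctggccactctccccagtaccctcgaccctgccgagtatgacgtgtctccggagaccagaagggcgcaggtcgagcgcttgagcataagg
Ndufb4c: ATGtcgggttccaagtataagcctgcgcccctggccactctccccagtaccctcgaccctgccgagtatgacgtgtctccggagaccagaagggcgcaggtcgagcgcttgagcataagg
Of the 291 possible 100-nt windows of this coding stretch, all 291 also occur in the pseudogene, so a read of that length from within it cannot be assigned to either by sequence. The main coding transcript of Ndufab1, Ndufab1-206, showed 1 substitution against the pseudogene Gm4459 over 381 aligned coding bases (99.7% identical). The substitution is G50A, counted from the first base of the transcript, with the Ndufab1 base first. A stretch of 30 bases around it is printed with that base in capitals, from the minus strands of chr7:122101672-122101701 for Ndufab1 and chr7:139660005-139660034 for Gm4459.
Ndufab1-206: tccggaggagacccgGggctctgcagtccg
Gm4459: tccggaggagacccgAggctctgcagtccg

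Both libraries held all 36 members at 1 TPM or more, where 57.5% of the 21461 nuclear protein-coding genes passed. At 100 TPM or more in both libraries stood 34 of the 36, beside 6.31% of nuclear protein-coding genes. The members below that level were Ndufa11 and Ndufb4. The median member had 384 ± 2.04 TPM (SD, n = 2), above 98.6% of nuclear protein-coding genes, whose median among detected genes was 18.7 TPM in replicate 1 and 18.9 TPM in replicate 2. Together the members took 0.619% ± 0.0091 of all expected reads, or 1.46% of all TPM (n = 2).

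The 7 core subunits lay close together. Ndufv2, which carries an iron-sulphur cluster beside the flavin site, was the highest with 391 TPM in replicate 1 and 392 TPM in replicate 2. Ndufv1, which binds NADH and the flavin, had 327 and 339 TPM in the same order. Ndufs1, the largest core subunit of the matrix arm and the carrier of several iron-sulphur clusters, had 275 and 264 TPM. These 3 genes of the electron input module thus differed by less than 1.5-fold, and each stayed in the same place of the order in both libraries. Ndufs7, which carries an iron-sulphur cluster at the ubiquinone site, had 371 and 357 TPM. Ndufs3, a scaffold subunit of the ubiquinone module, had 275 and 271 TPM. Ndufs8, a ferredoxin-like iron-sulphur subunit of that module, was the lowest core member with 205 and 188 TPM. The highest core mean was 1.99 times the lowest, and the SD over the core of the log2 TPM was 0.36.

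**Figure D1:**
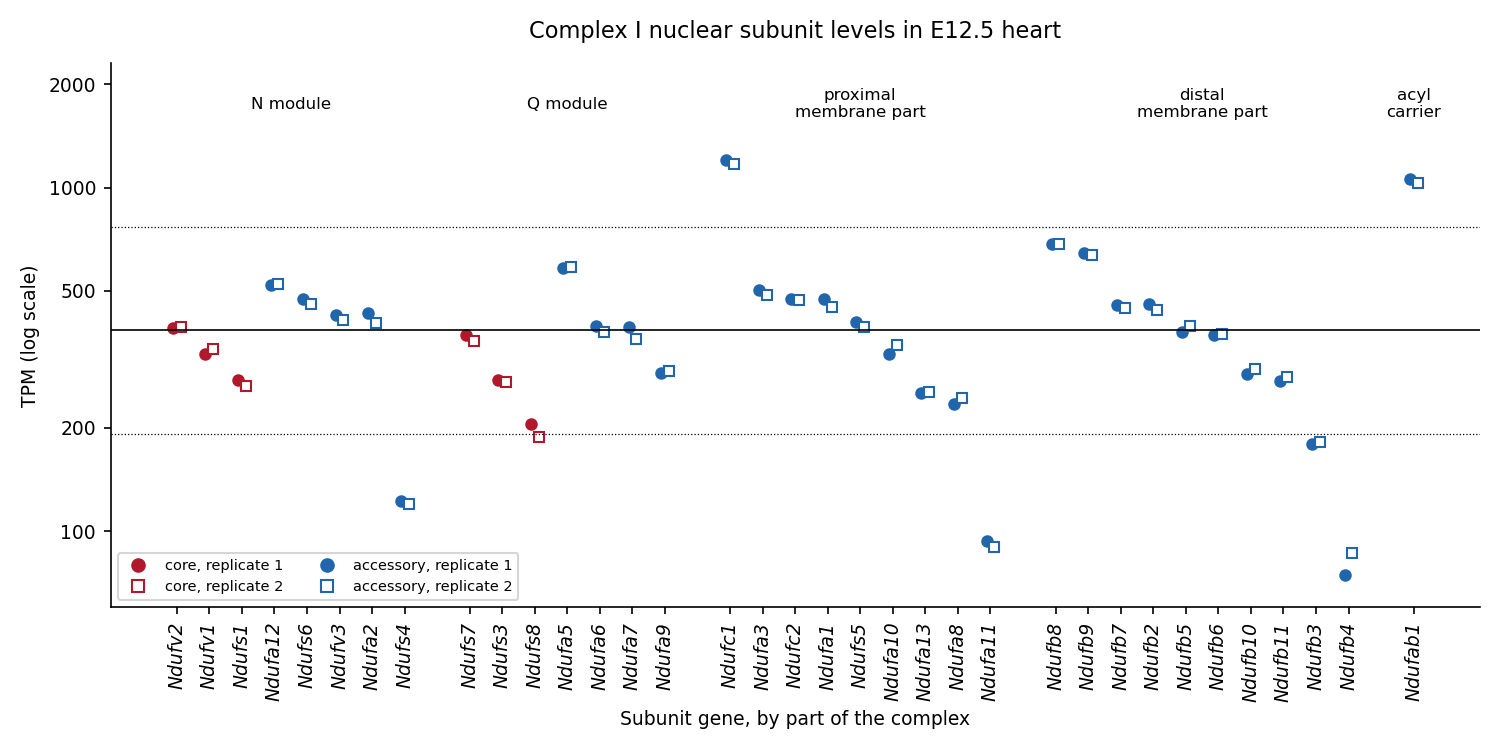
TPM (log scale) of 35 of the 36 nuclear subunit genes in replicate 1 (filled circles) and replicate 2 (open squares) of embryonic heart, by part of the complex, core subunits in red and accessory subunits in blue; the solid line is the member median of 384 TPM and the dotted lines are 2 times and 0.5 times that median. The 6 core genes drawn stay between 188 and 392 TPM, while accessory genes run from Ndufb4 at the bottom to Ndufc1 at the top.

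The 29 accessory subunits covered a much wider range, from 74.5 to 1206 TPM, with an SD of the log2 TPM of 0.88. Without Ndufa11 and Ndufb4, whose low levels are taken up below, that SD was 0.69. By mean level, 15 accessory genes stood above the highest core gene, 4 below the lowest, and 10 within the core range. The highest was Ndufc1 (ENSMUSG00000037152.7), a small membrane-arm subunit, with 1206 TPM in replicate 1 and 1172 TPM in replicate 2. Ndufab1, the mitochondrial acyl carrier protein that also serves mitochondrial fatty acid synthesis, followed with 1056 and 1033 TPM. Below them came Ndufb8 with 684 and 683 TPM and Ndufb9 with 644 and 634 TPM, both of the distal membrane arm, and Ndufa5, of the ubiquinone module, with 585 and 585 TPM. These 5 genes kept the same order in both libraries.

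At the low end, Ndufb4 had 74.5 TPM in replicate 1 and 86.5 TPM in replicate 2. Ndufa11, a membrane-arm subunit at the contact with complex III in the supercomplex, had 93.7 and 89.8 TPM. Ndufs4, an accessory subunit of the electron input module whose loss causes a Leigh-like disease in mice, had 122 and 120 TPM. Ndufb3 had 180 and 181 TPM and Ndufa8 had 235 and 244 TPM. The ranges of these 5 genes over the libraries did not overlap, so their order was the same in both.

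The remaining 19 accessory genes lay between the levels of Ndufa13 (252 and 255 TPM) and Ndufa12 (519 and 523 TPM). In the middle of the order neighbours were hard to tell apart. Of the 35 neighbouring pairs, the ranges of 15 overlapped between the libraries and 10 pairs changed places. Across all 36 genes the levels of the 2 libraries went together with a Spearman rho of 0.99 (across genes, which are not independent replicates).

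Measured against the member median of the same library, 29 of the 36 genes lay within 2-fold in both libraries, 24 within 1.5-fold and 17 within 1.25-fold. Of the core genes, 6 lay within 2-fold in both libraries. The seventh, Ndufs8, stood at 0.533 times the median in replicate 1 and 0.492 times in replicate 2, the value nearest to the limit. Above 2-fold in both libraries were Ndufc1, at 3.13 and 3.06 times the median, and Ndufab1, at 2.74 and 2.70 times. Below 0.5 times were Ndufb3 (0.466 and 0.474), Ndufs4 (0.317 and 0.312), Ndufa11 (0.243 and 0.235) and Ndufb4 (0.193 and 0.226). The ratio of the highest to the lowest member was 16.2 in replicate 1 and 13.5 in replicate 2.

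Core subunits had a median of 333 ± 8.27 TPM and accessory subunits one of 401 ± 7.98 TPM (SD, n = 2). The difference, core minus accessory on the log2 scale, was -0.31 in replicate 1 and -0.22 in replicate 2. With coding transcripts alone it was -0.53 on average. The classes also differed in transcript length. Core transcripts had a median effective length of 947 nt (650 to 2215 nt) and accessory transcripts one of 531 nt (244 to 2562 nt), the effective length being the number of places where a read can start. Accessory genes under 500 nt, of which there were 14, had a median of 455 ± 15.8 TPM, whereas the 15 of 500 nt or more had a median of 292 ± 5.39 TPM. All 7 core genes were over 500 nt, and against the 15 accessory genes of that length the core stood higher, by 0.19 on the log2 scale. Ndufa11 is among these 15 through a transcript model of 2661 nt in the annotation the authors used. In the later GENCODE M21 that model has 545 nt and 446 places for a 100-nt read, which is under 500 nt. The difference without Ndufa11 was not computed. In CPM, which scales reads to library size and does not divide by length, core genes had a median of 250 ± 2.49 CPM and accessory genes one of 142 ± 1.23 CPM. At equal levels CPM favours the longer class, here the core, so it does not compare levels between the classes. In TPM the sign of the difference depended on whether genes under 500 nt were counted. With the M21 lengths of the same transcripts and all genes counted, the difference was -0.27.

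Over the 36 genes, log2 TPM and log2 effective length had a Pearson r of -0.61 and a Spearman rho of -0.71. The same for log2 reads was 0.42 with both measures. TPM is computed by dividing by this length, so that the axes share it, and the genes share both libraries. Within the 7 core genes the Pearson r of log2 TPM with log2 length was -0.05, and that of log2 reads was 0.85. Within the 29 accessory genes the same 2 values were -0.69 and 0.20.

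**Figure D2:**
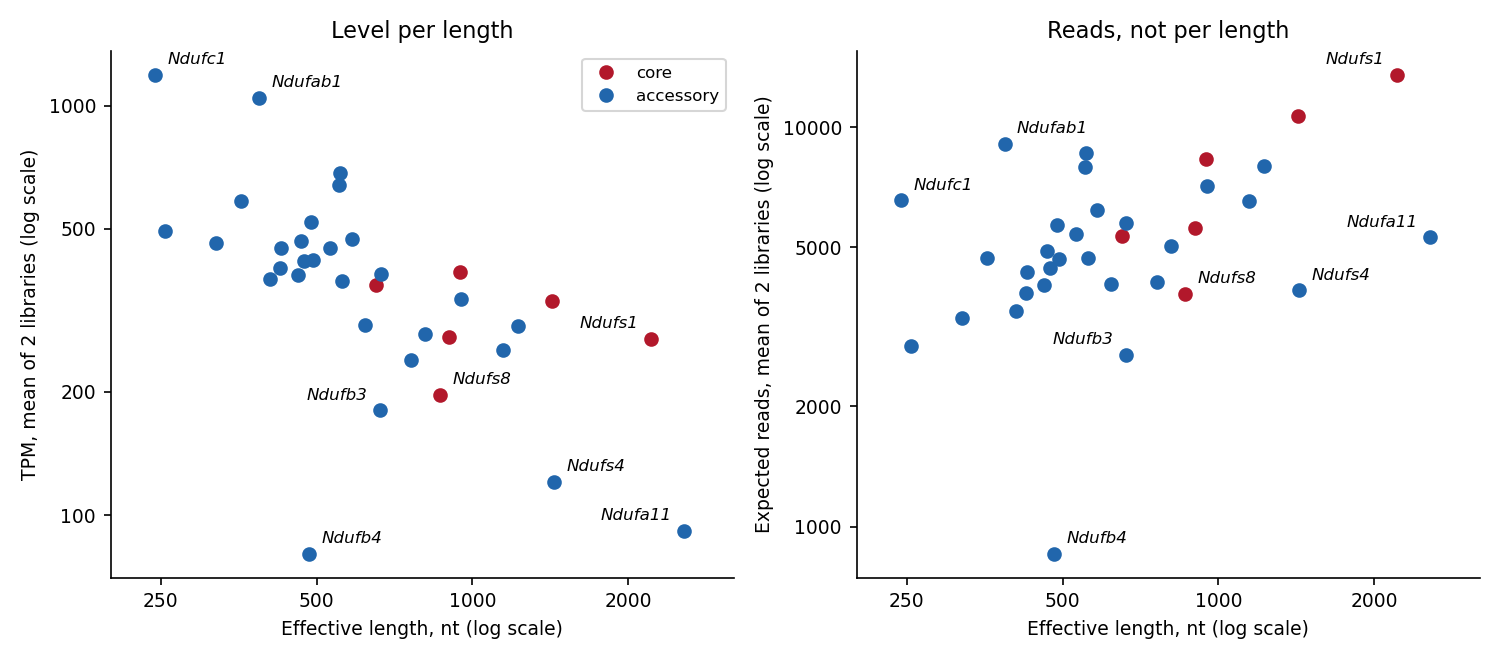
Mean level of 35 of the 36 subunit genes against effective length (nt, log scale), as TPM (left) and as estimated reads (right), with core genes in red and accessory genes in blue; points are means of 2 libraries. Short accessory genes such as Ndufc1 lie at the top of the left panel, whereas in the right panel Ndufs1, the longest core gene, is the highest with 14369 and 12682 reads.

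Between the arms of the complex the difference was smaller than the spread of the libraries. The 16 matrix-arm genes had a median of 376 ± 7.67 TPM and the 19 membrane-arm genes one of 387 ± 9.62 TPM, Ndufab1 being counted in neither. The log2 difference, matrix arm minus membrane arm, was 0.0028 in replicate 1 and -0.089 in replicate 2. With coding transcripts alone the mean difference was -0.35, so that this comparison rests on how non-coding transcripts are counted. By part, the electron input module had a median of 403 ± 7.87 TPM, the ubiquinone module 364 ± 6.59 TPM, the proximal membrane part 400.4 ± 9.21 TPM and the distal membrane part 381 ± 6.04 TPM. Both extremes of the whole set, Ndufc1 and Ndufb4, belong to the membrane arm. The X-linked members, Ndufa1 and Ndufb11, both of the membrane arm, had 475 and 448 TPM (Ndufa1) and 274 and 280 TPM (Ndufb11).

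The low level of Ndufb4 stood beside a high level of its copy. Ndufb4 received 849 reads in replicate 1 and 861 in replicate 2, the fewest of any member, while Ndufb4c received 2930 and 2412 reads. The pseudogene thus held 77.5% and 73.7% of the reads of the pair, with 426 and 388 TPM. The sum of both was 488 ± 18.4 TPM (n = 2), which would lie within 2-fold of the member median. That sum scales the reads of the copy by its own length of 390 nt, whereas the coding transcript Ndufb4-201 has 971 nt. The sum therefore need not be the level that Ndufb4 would have if all these reads were its own. The deposited posterior SD of the Ndufb4 count was 19.6 reads in replicate 1, or 2.3% of its reads. It expresses how firmly the authors' model divided the reads, and with identical windows the files do not show from which gene the reads came. For Ndufab1, Gm4459 received 947 and 759 reads beside the 9639 and 8548 of the subunit gene, so that the division of that pair left the subunit gene with most of the reads. Of the 353 windows of Ndufab1-206, 80.5% occur in Gm4459, in the pseudogene Ndufab1-ps or in an overlapping annotation. The other 34 members had a posterior SD of at most 0.25% of their reads. For 24 members no 100-nt window of the leading coding transcript was found in a transcript of another gene.

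**Figure D3:**
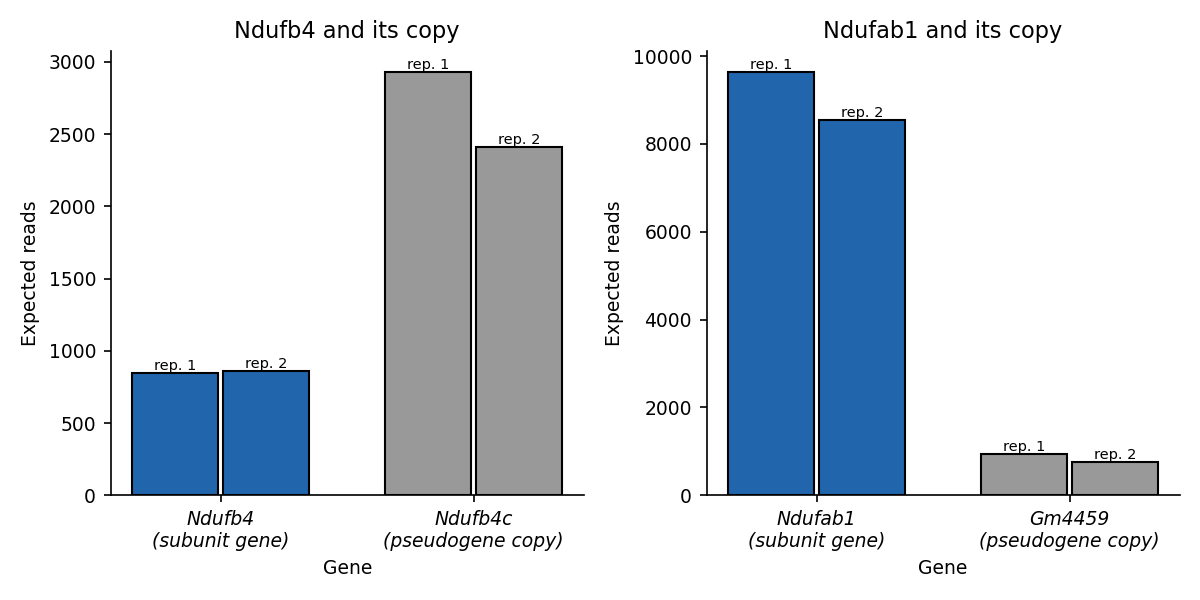
Expected reads of Ndufb4 and its pseudogene copy Ndufb4c (left) and of Ndufab1 and its copy Gm4459 (right); each pair of bars gives replicate 1 and replicate 2, subunit genes in blue and copies in grey. Ndufb4 lies below its copy in both libraries, whereas Ndufab1 lies above its copy.

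The low level of Ndufa11 (ENSMUSG00000002379.6; GRCm38 chromosome 17, 56717767 to 56722141) stood beside a long transcript model. The gene received 5674 reads in replicate 1 and 4916 in replicate 2, near the member medians of 5456 and 4879 reads. All of these reads fell on Ndufa11-201, which has 2661 nt in the annotation the authors used and 545 nt in the later GENCODE M21. Dividing the same reads by the later length would give 538 and 516 TPM, 5.74 times the deposited level, and the sixth place among the members. That value assumes that all reads lie within the shorter model, which the deposited tables cannot show. The other member that moved by over 1.2-fold with the later lengths was Ndufa3, whose level became 309 ± 8.54 TPM in place of 494 ± 10.5 TPM. For Ndufs4, whose model changed little (1534 nt in the older and 1698 nt in the later annotation), the level remained low at 108 ± 1.6 TPM.

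The transcript tables list 153 transcripts for the members, all of which matched GENCODE M21, and 12 members had only 1. The same transcript led in both libraries for all 36 members. A second transcript held 10% or more of the gene's TPM in both libraries for 11 members, 5 of them core and 6 accessory, beside 46.7% of the nuclear protein-coding genes at 10 TPM or more. Just outside was Ndufb2, whose second transcript held 9.99% and 10.5%. The shares are the authors' estimates, and reads from bases that several transcripts share are divided by their model.

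Among the core genes, Ndufs1 was led by Ndufs1-201 with 62.5% ± 0.871, next to Ndufs1-203 with 19.2% ± 0.123 (n = 2). Ndufs7-201 held 73.8% in replicate 1 and 82.5% in replicate 2, next to the non-coding Ndufs7-206 with 22.4% and 14.0%, the core gene whose shares moved most between libraries. Ndufv1 was divided between the coding Ndufv1-201 (66.8% ± 0.0902) and Ndufv1-207 (24.8% ± 0.425), and Ndufv2 between the coding Ndufv2-201 (79.6% ± 0.272) and Ndufv2-203 (19.7% ± 0.0848). All core genes were led by a protein-coding transcript in both libraries.

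Among the accessory genes, Ndufv3, a small subunit near the flavin site known to exist in a short and a long form, was led by the short coding transcript Ndufv3-202 of 485 nt with 89.0% ± 0.449. Its long coding transcript Ndufv3-201 of 1537 nt held 10.4% ± 0.536. Ndufb5 was divided among the coding transcripts Ndufb5-203 (48.6% ± 1.55), Ndufb5-204 (30.1% ± 0.904) and Ndufb5-202 (19.9% ± 0.595). The leading transcript by TPM was not of the protein-coding type in both libraries for 3 members, Ndufa5, Ndufa10 and Ndufb4, beside 5.3% of the nuclear protein-coding genes at 10 TPM or more. Ndufa5-204, a processed transcript of 453 nt, held 86.7% and 89.3% of Ndufa5, and Ndufb4-202, a retained-intron transcript of 465 nt, held 77.0% and 80.2% of Ndufb4. The copy Ndufb4c shares 291 of the 872 windows of the coding Ndufb4-201 and 111 of the 366 of Ndufb4-202. The Ndufb4 shares, and its level by coding transcripts, thus rest on the same unsettled division of reads. Ndufa10 was the most divided, with 28.3% and 26.3% on the retained-intron transcript Ndufa10-204 and 20.0% and 21.4% on the coding Ndufa10-201. By expected reads the order was the reverse, with 2972 and 3045 on Ndufa10-201 (2020 nt) against 1352 and 1200 on Ndufa10-204 (715 nt). The 2 highest members also had large non-coding shares. Ndufc1 had 50.4% on protein-coding transcripts and 35.5% on retained-intron transcripts, and Ndufab1 had 49.9% on protein-coding transcripts, led among the others by the retained-intron transcript Ndufab1-205 with 35.3% ± 1.06. Counting coding transcripts alone, Ndufc1 had 600 ± 20.6 TPM and Ndufab1 521 ± 1.1 TPM, and no member then lay over 2 times the member median, while Ndufa5 and Ndufa10 joined Ndufa11, Ndufs4 and Ndufb4 below 0.5 times.

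**Figure D4:**
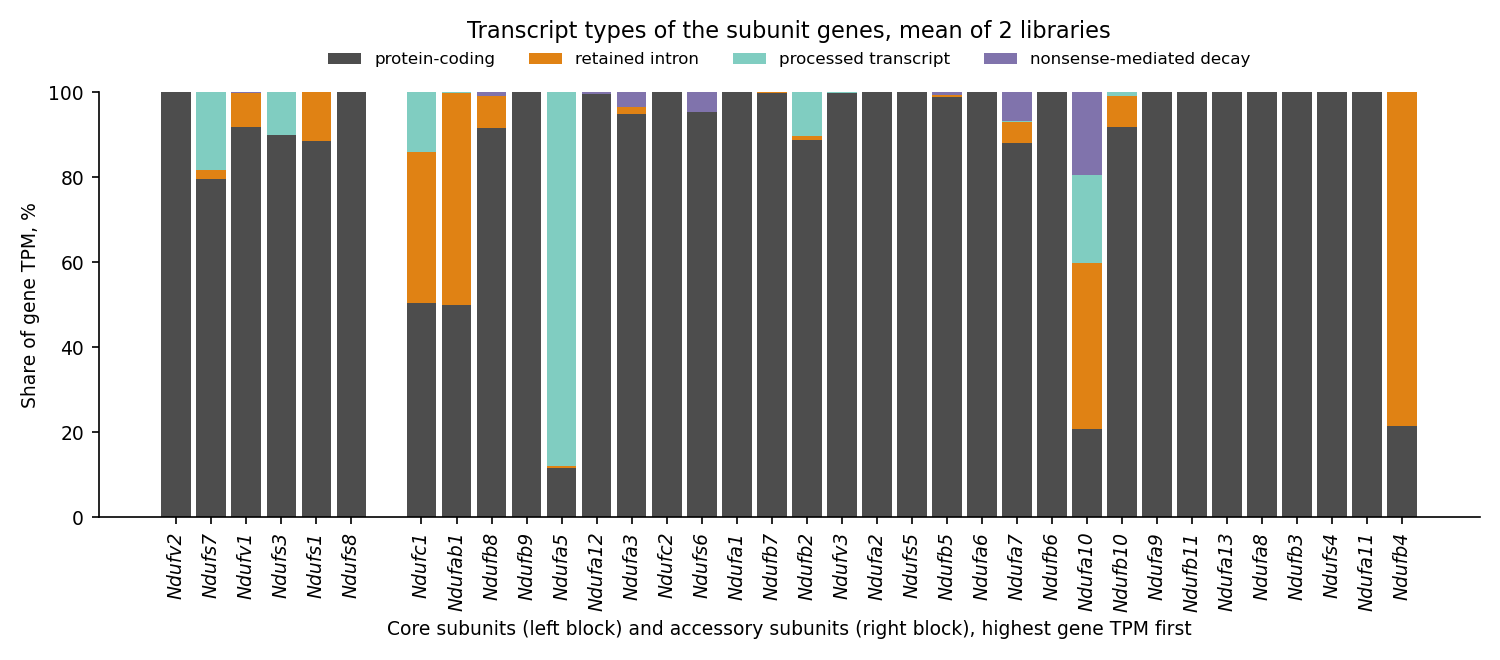
Share of each gene's TPM (%, mean of 2 libraries) on transcripts annotated as protein-coding, retained intron, processed transcript or nonsense-mediated decay, for 6 of the 7 core genes (left block) and the 29 accessory genes (right block), each ordered from the highest gene TPM. By this mean, protein-coding transcripts held 90% or more in 25 of all 36 genes and under 50% in Ndufa5, Ndufa10, Ndufb4 and Ndufab1. Ndufab1 (49.4% in replicate 1 and 50.3% in replicate 2) and Ndufc1 (50.9% and 49.9%) both lay at that line. The shares of Ndufb4 rest on reads divided with its copy Ndufb4c.

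The core subunits coded in the nucleus, with a median of 333 ± 8.27 TPM, were set beside the 7 core subunits coded by mitochondrial DNA, with a median of 784 ± 23.9 TPM (n = 2). The log2 difference, mitochondrial minus nuclear, was 1.23 in replicate 1 and 1.24 in replicate 2. The mitochondrial genes were far more uneven than the nuclear core. mt-Nd1 had 3346 TPM in replicate 1 and 3342 TPM in replicate 2, mt-Nd4 had 1436 and 1456 TPM, and mt-Nd2 had 937 and 983 TPM. mt-Nd6, the one coded on the other strand, had 767 and 801 TPM, and mt-Nd5 had 646 and 659 TPM. mt-Nd3 had 480 and 437 TPM with a posterior SD of 396 and 357 reads on 2826 and 2326 reads. mt-Nd4l had 18.7 and 81.7 TPM with a posterior SD of 158 and 509 reads, more than its own 87.3 and 346 reads, so its level is not determined. These transcripts are cut from long precursors, and no source used here says whether the libraries keep strand.

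The members stood well above the genes that build the complex. Of the 19 assembly factors listed, 18 matched a row and all 18 were detected. Their median was 41.9 ± 2 TPM beside 384 ± 2.04 TPM for the members, and the log2 difference, members minus assembly factors, was 3.15 in replicate 1 and 3.24 in replicate 2. By mean level, all 18 lay below Ndufb4, the lowest member. In replicate 1, Ndufb4 had 74.5 TPM, against 77.4 TPM for Dmac1 and 75.8 TPM for Tmem70, which stood above it there. The highest were Dmac1 (78.6 ± 1.74 TPM), a factor of the distal membrane module, and Tmem70 (76.1 ± 0.361 TPM), which also serves the assembly of ATP synthase. Ndufaf4 (66.8 ± 0.29 TPM) and Ndufaf8 (62 ± 3.32 TPM) followed. The lowest were Tmem186 (16.5 ± 0.17 TPM) and Nubpl (9.2 ± 0.283 TPM), an iron-sulphur protein required for the complex.

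Beside other assemblies, the nuclear subunits of complex I had a lower median level than those of complexes III and V and a higher one than those of the mitochondrial ribosome and the proteasome, with no test between the lists. Complex I had a median of 384 ± 2.04 TPM, the 9 genes of complex III 718 ± 6.43 TPM, the 17 nuclear genes of complex V 881 ± 4.09 TPM, the 77 genes of the mitochondrial ribosome 80.4 ± 1.97 TPM and the 35 genes of the proteasome 177 ± 3.95 TPM. The share of genes within 2-fold of their own list's median was 81.9% for complex I on average over the libraries, 94.4% for complex III, 76.5% for complex V, 74% for the mitochondrial ribosome and 82.9% for the proteasome. For the 7 nuclear core genes, taken against their own median, it was 100%. The lists differ in size and were taken by gene name, so some hold members with other roles, such as Psma8 of the proteasome with 2.31 and 2.79 TPM.

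**Figure D5:**
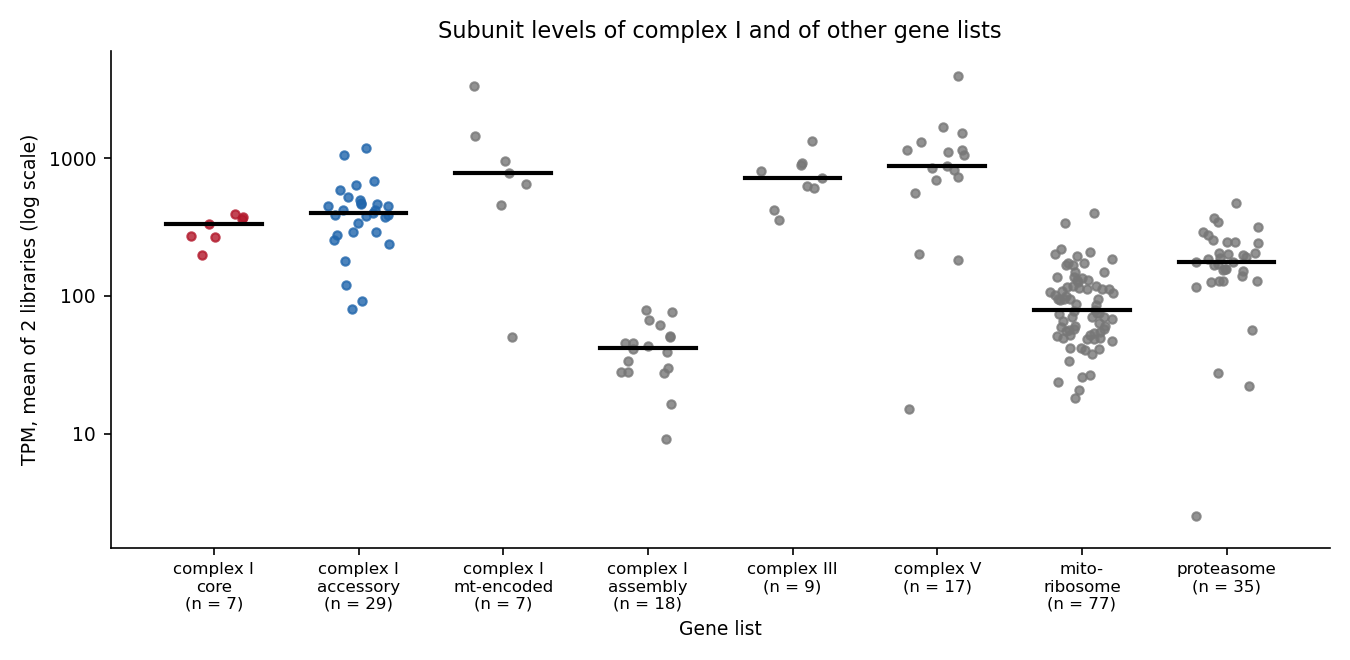
TPM (log scale, mean of 2 libraries) of each gene in complex I core, complex I accessory and the other lists, with a bar at the median of each list. The nuclear core genes form the tightest column, and by mean level all 18 assembly factors lie below the lowest nuclear subunit, although Dmac1 and Tmem70 stood above it in replicate 1.

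Genes with Nduf names that the rule leaves out were also read. Ndufa4, now counted with complex IV, had 1123 TPM in replicate 1 and 1115 TPM in replicate 2, above all members other than Ndufc1. Its relative Ndufa4l2 had 19.4 and 14.9 TPM. The pseudogenes Ndufs6b and Ndufa11b had at most 9.01 reads in either library.

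Between the libraries the members differed little. The median log2 difference over the 36 members, replicate 2 minus replicate 1 on the log2(TPM + 0.1) scale, was -0.02, beside 0.02 for the 13529 nuclear protein-coding genes with a mean of at least 20 reads. Of the members, 21 were lower and 15 higher in replicate 2, while 42.9% of those nuclear genes were lower. No member was over 1.2-fold lower in replicate 2, beside 6.71% of these genes, and none was over 1.2-fold higher, beside 7.55%. Those genes needed a mean of only 20 reads, whereas each member had at least 849 per library, so these shares are not matched for depth. The largest positive difference was that of Ndufb4, with 86.5 TPM in replicate 2 against 74.5 TPM in replicate 1 (0.22), and that of Ndufa10 was 0.08. The largest negative differences were those of Ndufs8, with 188 TPM in replicate 2 against 205 TPM in replicate 1 (-0.13), Ndufa7 (-0.12) and Ndufa2 (-0.10). The median size of the difference over members was 0.045, and over the 2364 nuclear protein-coding genes of at least 3000 reads it was 0.043. Of the other tissue markers, those of hepatocytes differed between libraries, with 67.5 TPM in replicate 2 against 239 TPM in replicate 1 in the sum of 7 genes. Their part in the subunit levels was not tested.

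Sequences around the transcription start were compared for what the members share beyond their names. RefSeq windows of 250 bases before to 50 after the start (GRCm38.p6) were matched for 32 of the 36 members; Ndufa2, Ndufb9 and Ndufs1 were among those with none. Each motif was searched on both strands as exact letters. The letters AAGATGGC, a form of the binding motif of the factor YY1, occurred in 7 of the 32 windows and in 3.19% of the windows of all 27025 genes. In all 7 the ATG inside these letters is the annotated start codon of the gene. Over all genes, 0.633% had these letters on a start codon within the window. The 27025 genes were not limited to protein-coding genes or to genes with a start codon inside the window. The members and this background are therefore unlike sets. The 30 bases around each are printed 5′ to 3′ on the gene's strand, with the motif in capitals, from the highest to the lowest member after the core gene Ndufs7.
Ndufs7: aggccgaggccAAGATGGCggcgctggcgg
Ndufc1: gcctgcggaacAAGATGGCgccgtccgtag
Ndufb8: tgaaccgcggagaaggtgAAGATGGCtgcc
Ndufa3: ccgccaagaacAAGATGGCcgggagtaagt
Ndufs6: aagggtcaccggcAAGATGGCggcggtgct
Ndufa9: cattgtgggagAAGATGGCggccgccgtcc
Ndufs4: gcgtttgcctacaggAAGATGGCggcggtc
These windows lie at chr10:80249462-80249491 (Ndufs7), chr3:51408915-51408944 (Ndufc1), chr19:44555393-44555422 (Ndufb8), chr7:3617384-3617413 (Ndufa3), chr13:73328433-73328462 (Ndufs6), chr6:126849097-126849126 (Ndufa9) and chr13:114388045-114388074 (Ndufs4). The 7 genes span the range of levels, from Ndufc1, the highest member, to Ndufs4, the third lowest. The letters CCGGAAG, a core of the motif of ETS factors such as GABPA, occurred in 4 of 32 windows (Ndufb6, Ndufb7, Ndufs3 and Ndufs8) and in 9.93% of all. The letters GCGCATGC, a core of the motif of NRF1, occurred in 3 of 32 (Ndufa6, Ndufa8 and Ndufa11) and in 3.05% of all. TATAAA occurred in 4 of 32 windows and in 15.7% of all, and CCAAT in 10 of 32 and in 41.1% of all. A match describes letters in the window and does not show binding.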

How the data were processed

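Total RNA from embryonic heart was sequenced in 2 libraries of 1 group. Extraction used a mirVana kit and the protocol cites a SMARTer Ultra Low kit manual, per the labels' protocols. Per the notes deposited with the files, reads were aligned to mm10 and quantified with GENCODE M4, with aligner and counter not given in the sources used here. Among the columns, the deposited expected counts are estimates of reads per gene or transcript, in which shared reads are divided. The deposited TPM values, and their posterior means, are scaled by effective length and to a fixed total over all listed features, spike-ins included. The deposited lengths imply reads of 100 nt.

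Gene names, types and coordinates came from GENCODE M21 on the same build. Groups were core and accessory subunits, modules, mitochondrially encoded subunits and assembly factors. Levels were compared as medians of log2 TPM in each library, and libraries as log2(TPM + 0.1) for genes with a mean of at least 20 reads. Expected counts were not rounded, since no count model was used. Transcript shares were computed from TPM. The 100-nt windows of member transcripts were looked up on both strands in all GENCODE M21 transcripts. The steps were tested on simulated counts.

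Members, gene lists, thresholds and alternatives were chosen with earlier results of these data known. Named genes are all core genes, the 5 highest and 5 lowest accessory genes, Ndufab1, genes over 2-fold from the median, the 3 largest differences between libraries each way, genes with a second transcript of 10% or more, the mitochondrial genes, the 4 highest and 2 lowest assembly factors and Nduf-named genes left out; others were named after their values were seen. The individual values of 1 core gene are not reported here; it remains in counts and medians. Of the listed assembly factors, Coa1 matched no row. PCR copies make reads fewer molecules than their number, so depth speaks for counting error only; each member had at least 849 reads per library. Alternatives covered posterior mean TPM, coding transcripts alone, length, thresholds, pseudocounts and each library alone. Python 3.11.15, pandas 2.3.3, numpy 2.4.6, scipy 1.17.1 and matplotlib 3.10.9 were used.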

Additional observations from a re-analysis of the deposited data

Results flagged for a closer look

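Reads on pseudogenes named after subunit genes were flagged because they lie outside the members compared and above the limit of 3 reads that a count of 0 allows, in both libraries. Ndufb4c received 2930 reads in replicate 1 and 2412 reads in replicate 2. Ndufab1-ps received 8.31 reads in replicate 1 and 5.42 reads in replicate 2, with a posterior SD of 4.09 and 3.75 reads. Groups of 2 libraries are too small for a search for samples far from the others.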

How the results depend on the processing

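Of 59 alternative values, 40 stayed within the spread of the replicates or 1.5 times of the count as reported, 15 moved further and 4 changed sign. For a value averaged over the 2 libraries, each single library lies within their spread by construction. Such alternatives could only stay or change sign, so the count of those that stayed is no measure of robustness. Core minus accessory, -0.27 on the log2 scale, became 0.19 without members under 500 nt of effective length and 0.82 with expected counts not divided by length; it was -0.53 with coding transcripts alone and -0.31 to -0.22 in the single libraries. Matrix arm minus membrane arm, -0.04, was -0.35 with coding transcripts alone, 0.022 with counts not per length and -0.089 to 0.0028 in the single libraries. Mitochondrial minus nuclear core, 1.23, was 1.225 with posterior mean TPM, 1.53 with coding transcripts alone and 1.38 without mt-Nd4l. Members minus assembly factors, 3.20, was 3.49 with coding transcripts alone. The SD of log2 TPM over members, 0.81, was 1.06 with coding transcripts alone, 0.68 without members under 500 nt, 0.74 with M21 lengths, 0.72 with Ndufb4c added to Ndufb4 and 0.70 with counts not per length. The 6 members outside 2-fold became 12 outside 1.5-fold, and the 11 with a second transcript became 5 at 20%. The share of reads, 0.619%, was 0.681% of nuclear protein-coding reads and 1.46% of TPM. The cause of these shifts was not tested, beyond what each alternative leaves out. M21 lengths, the addition of Ndufb4c, the removal of mt-Nd4l and counts not per length, the last for the arms and the spread, were chosen after the data were seen. Detection of all 36 members held under every threshold tried. No paired analysis was possible because there is 1 group. Adding Ndufb1-ps was not run, as it matched no row. The levels of mt-Nd4l and mt-Nd3 are limited by uncertain read allocation.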
